A study of Homo sapiens with 6 samples.

Results

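AKR1C1, AKR1C2 and AKR1C3 encode aldo-keto reductases, cytosolic enzymes that use NADPH to reduce reactive aldehydes and the ketones on steroids and prostaglandins. They were examined here together with AKR1B1, NQO1, HMOX1, GCLM, GCLC and TXNRD1, which are known targets of the transcription factor NRF2. The question was whether a difference in the AKR1C genes was shared by other NRF2 targets. The cells were SUM-159 (labelled SUM159), a triple-negative breast cancer line grown in culture. They had been stably transfected with empty pcDNA 3.1 vector, the control genotype, or with the same vector carrying SH3GL2, a gene for an endocytic adaptor protein. Each group had 3 Affymetrix human expression arrays. The sources used here do not say whether the 3 arrays of a group came from separate cultures or clones, so errors measure the spread between arrays, which may be technical.

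Members were all probe sets whose annotation named 1 of the 9 genes. A probe set is the group of short probes on the array that reads 1 transcript or a set of similar ones. This gave 14 probe sets of 22277, of which 22215 were not controls. They covered 8 of the 9 genes. No probe set carried the symbol AKR1B1 in the annotation used, and it was not analysed here. The gene list was selected on the measured AKR1C difference between these same 6 arrays. The values of the members are therefore a description of this contrast. Calls and intervals that the fit over all probe sets gave them are printed as part of that description, and they are not tests of the members.

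NRF2, encoded by NFE2L2, is the main activator of the cellular response to oxidants and electrophiles. The adaptor KEAP1 holds it in the cytoplasm and passes it to a ubiquitin ligase, and electrophiles that modify KEAP1 let it accumulate. In the nucleus it pairs with a small MAF protein and binds antioxidant response elements, from which BACH1 can displace it. The AKR1C genes are widely used as NRF2 targets in human cells. AKR1C1 is known for the inactivation of progesterone, AKR1C2 for that of dihydrotestosterone, and AKR1C3 for the reduction of androstenedione to testosterone and of prostaglandin D to prostaglandin F.

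The bases just before the start of these genes show how closely the AKR1C loci resemble each other. RefSeq windows of 250 bases upstream of the start (GRCh38.p14) were matched by symbol for 8 of the 9 genes, giving 11 windows. The AKR1C1 window lies at chr10:4963165-4963414 on the plus strand. It shares an unbroken run of 245 of its 250 bases with the AKR1C2 window at chr10:5003858-5004107 on the minus strand. The capitals mark the 5 bases outside that run.
AKR1C1: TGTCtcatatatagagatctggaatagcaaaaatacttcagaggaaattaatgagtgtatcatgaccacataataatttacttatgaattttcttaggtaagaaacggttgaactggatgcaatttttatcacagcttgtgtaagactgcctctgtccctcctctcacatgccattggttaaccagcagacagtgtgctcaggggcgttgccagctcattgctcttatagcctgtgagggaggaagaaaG
The AKR1C3 gene has 2 windows, at chr10:5048531-5048780 and chr10:5094164-5094413 on the plus strand. They were 74.0% and 73.6% identical to the AKR1C1 window when aligned. The capitals mark the longest run that each shares with AKR1C1, of 12 and 19 bases.
AKR1C3, first window: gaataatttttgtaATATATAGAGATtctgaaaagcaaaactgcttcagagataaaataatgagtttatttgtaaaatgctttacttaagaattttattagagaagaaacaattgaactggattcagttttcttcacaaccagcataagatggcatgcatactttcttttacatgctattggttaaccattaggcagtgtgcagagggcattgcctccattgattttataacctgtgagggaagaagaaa
AKR1C3, second window: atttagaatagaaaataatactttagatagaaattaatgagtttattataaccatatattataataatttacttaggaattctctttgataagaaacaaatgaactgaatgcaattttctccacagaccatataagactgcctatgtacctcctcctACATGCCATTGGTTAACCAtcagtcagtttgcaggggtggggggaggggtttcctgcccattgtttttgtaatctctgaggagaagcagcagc
The core of the antioxidant response element was searched on both strands as TGACNNNGC. It was in 3 of the 11 member windows and in 10.9% of the 35116 RefSeq windows (3830 windows). The AP-1 motif TGANTCA was in 6.57% of all windows and in no member window, so no match overlapped another motif. The core was in the GCLM window (chr1:93909431-93909680, minus strand) and in both TXNRD1 windows (chr12:104215529-104215778 and chr12:104286782-104287031, plus strand). These windows are shown because they hold a match to the core, in capitals. Binding of NRF2 there was not measured. In GCLM and in the second TXNRD1 window the core reads on the opposite strand.
GCLM: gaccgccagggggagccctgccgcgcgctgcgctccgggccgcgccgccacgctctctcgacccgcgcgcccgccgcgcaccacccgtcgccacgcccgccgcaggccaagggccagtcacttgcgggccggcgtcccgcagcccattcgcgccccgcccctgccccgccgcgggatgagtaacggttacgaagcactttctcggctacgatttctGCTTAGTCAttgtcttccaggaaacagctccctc
TXNRD1, first window: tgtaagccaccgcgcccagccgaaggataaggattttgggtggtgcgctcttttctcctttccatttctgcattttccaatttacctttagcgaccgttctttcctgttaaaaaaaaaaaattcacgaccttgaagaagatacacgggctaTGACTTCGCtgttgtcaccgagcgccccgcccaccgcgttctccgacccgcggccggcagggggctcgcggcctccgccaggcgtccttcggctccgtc
TXNRD1, second window: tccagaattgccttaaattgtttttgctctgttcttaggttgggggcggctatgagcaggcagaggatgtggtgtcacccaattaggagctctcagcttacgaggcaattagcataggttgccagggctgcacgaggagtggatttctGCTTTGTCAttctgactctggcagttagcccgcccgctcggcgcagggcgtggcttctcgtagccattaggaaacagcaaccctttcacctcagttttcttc
None of the 4 AKR1C windows held these letters, which says nothing of sequence outside the windows.

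The arrays were deposited as log2 signals, and no depth exists for arrays, so their number limits the precision. Array medians lay between 6.98 and 7.03. The level of a probe set without its transcript was described with 81 probe sets of 49 genes of other organs, whose means had their median at 4.95 and their 95th percentile at 7.03. The mesenchymal and basal genes VIM, CD44 and EGFR were high, with means of 10.09 to 14.68, and ESR1 and PGR lay under that 95th percentile, as did PTPRC, CD3D, CD14 and PECAM1. ERBB2 lay above it. The fibroblast collagen COL1A1 was at 8.43 in empty vector and 7.77 in SH3GL2 arrays on its brightest probe set. The fit over all probe sets called COL1A1 lower on 2 of its 4 probe sets, beside 2.18% of all probe sets. The red cell gene HBB was at 7.43 and 7.16. The part of COL1A1 and HBB in the results was not tested. The probe set for SH3GL2 itself was at 3.22 ± 0.04 in empty vector and 3.26 ± 0.09 in SH3GL2 arrays (SD, n = 3), under the reference median, so it did not check the group labels.

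The AKR1C genes were higher in SH3GL2 arrays by a factor of 1.75 to 1.96 on 5 of their 6 probe sets. The plot of member values by array shows these steps beside the values of the other targets. AKR1C1 read 12.52, 12.56 and 12.46 in the empty vector arrays and 13.29, 13.59 and 13.36 in the SH3GL2 arrays on probe set 204151_x_at (log2 signal). Every SH3GL2 array lay above every empty vector array. The means were 12.51 ± 0.05 and 13.41 ± 0.16 (SD, n = 3), a difference of 0.90 on the log2 scale with a standard error of 0.07, or 1.87-fold. Standard errors (SE) and intervals, here and below, are those of the limma fit over all probe sets. That fit draws the spread of each probe set toward that of probe sets of similar brightness. An SE can therefore be smaller or larger than the SDs of its own probe set would give. The second AKR1C1 probe set, 216594_x_at, read 11.75, 11.82 and 11.70 against 12.55, 12.84 and 12.60, a difference of 0.91 (SE 0.07).

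**Figure D1:**
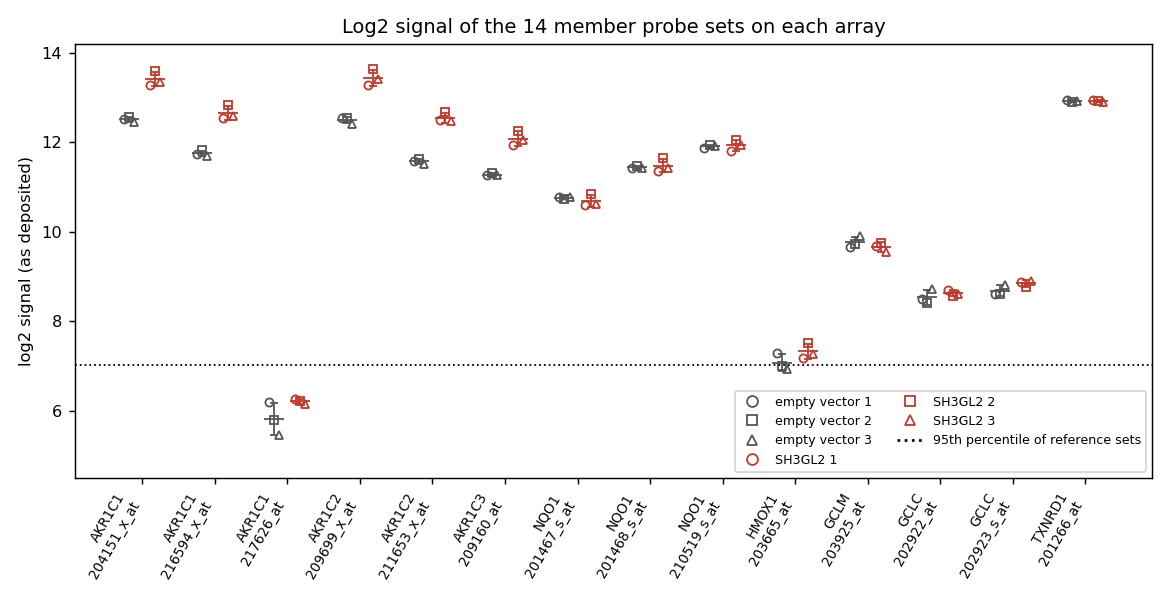
Log2 signal of the 14 member probe sets (horizontal axis) on each of the 6 arrays, with empty vector in grey, SH3GL2 in red, a marker shape for each replicate, and the mean with its SD as bars. The 5 bright AKR1C probe sets separate by group, from 11.26 to 12.56 against 11.94 to 13.64, while the groups overlap on the other 9, and the dotted line is the reference 95th percentile, 7.03.

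AKR1C2 showed the same picture. On 209699_x_at it read 12.55, 12.54 and 12.42 in empty vector and 13.29, 13.64 and 13.41 in SH3GL2 arrays, a difference of 0.94 (SE 0.07), or 1.92-fold. On 211653_x_at it read 11.58, 11.63 and 11.51 against 12.50, 12.67 and 12.47, a difference of 0.97 (SE 0.06), or 1.96-fold. Neither probe set overlapped between the groups. The ending _x_at marks probe sets with probes that match other transcripts as well, and AKR1C1 and AKR1C2 are near-identical in sequence. Their 4 bright probe sets are thus not independent, and which of these genes supplied the signal could not be told apart.

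AKR1C3, known for making androgens and prostaglandin F, has a probe set of its own without that ending, 209160_at. It read 11.26, 11.31 and 11.27 in empty vector arrays and 11.94, 12.26 and 12.05 in SH3GL2 arrays. The lowest SH3GL2 array lay above the highest empty vector array. The means were 11.28 ± 0.03 and 12.08 ± 0.16 (SD, n = 3), a difference of 0.80 (SE 0.07), or 1.75-fold. The remaining AKR1C1 probe set, 217626_at, was dim, at 6.19, 5.79 and 5.46 against 6.27, 6.21 and 6.15. Its groups overlapped, the difference was 0.40 (SE 0.15), and all 6 values lay under the reference 95th percentile.

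In the limma fit over all probe sets, 5 of the 6 AKR1C probe sets were called higher at an adjusted p under 0.05 and 5 had SH3GL2 arrays above all empty vector arrays. Over all 22215 probe sets the shares were 1.99% called higher, 2.18% called lower and 10.5% without overlap in that direction. Since the list was selected on this contrast, nothing is read from these counts. By a one-way analysis of variance, run as an alternative, 1 of the 6 was called higher, beside 0.149% of all probe sets. Ranked by difference from the highest, the 5 bright AKR1C probe sets were at places 29, 31, 34, 35 and 47, and the dim one at place 300. SH3GL2 replicate 2 was the highest of its group on 5 of the 6 AKR1C probe sets. It was also the highest on 5 of the 8 member probe sets outside AKR1C, among them all 3 of NQO1. Empty vector replicate 2 was likewise the highest of its group on AKR1C probe sets 204151_x_at, 216594_x_at, 211653_x_at and 209160_at. The same held on NQO1 probe sets 201468_s_at and 210519_s_at. The share of all probe sets with these orders was not counted, so nothing is read from them. Without SH3GL2 replicate 2 the differences of the bright AKR1C probe sets were 0.72 to 0.91.

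On the 8 probe sets of the other NRF2 target members the differences ran from -0.11 to 0.25, with a median of 0.03 beside 0.01 over all probe sets. NQO1, the quinone reductase most often used as an NRF2 readout, was bright on its 3 probe sets, and the groups overlapped on each. On 210519_s_at it read 11.87, 11.95 and 11.91 in empty vector arrays and 11.80, 12.06 and 11.94 in SH3GL2 arrays, a difference of 0.02 (SE 0.06). On 201468_s_at it read 11.42, 11.48 and 11.42 against 11.37, 11.65 and 11.42, a difference of 0.04 (SE 0.07). On 201467_s_at it read 10.79, 10.73 and 10.78 against 10.61, 10.85 and 10.63, a difference of -0.07 (SE 0.07). On each probe set the SH3GL2 arrays lay on both sides of the empty vector arrays. Without SH3GL2 replicate 2 the differences were -0.04, -0.045 and -0.15 in the same order.

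TXNRD1, the selenium-containing reductase that keeps thioredoxin reduced, had the smallest difference of the members. It read 12.94, 12.90 and 12.92 in empty vector and 12.95, 12.93 and 12.91 in SH3GL2 arrays, a difference of 0.01 (SE 0.04) with a 95% interval of -0.08 to 0.10. With the arrays quantile-normalized or centred on their medians this difference was -0.0097 and -0.0033. GCLM and GCLC form the ligase that starts glutathione synthesis, GCLM as its modifier and GCLC as its catalytic subunit. GCLM read 9.66, 9.73 and 9.90 against 9.68, 9.75 and 9.54, a difference of -0.11 (SE 0.08). GCLC read 8.62, 8.62 and 8.82 against 8.88, 8.76 and 8.91 on 202923_s_at, a difference of 0.16 (SE 0.08), and 8.49, 8.40 and 8.72 against 8.70, 8.56 and 8.62 on 202922_at, a difference of 0.09 (SE 0.09). The groups overlapped on every one of these probe sets.

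HMOX1, the heme oxygenase, had the largest positive difference outside AKR1C. It read 7.29, 7.01 and 6.93 in empty vector and 7.19, 7.51 and 7.28 in SH3GL2 arrays, a difference of 0.25 (SE 0.11). The groups overlapped through empty vector replicate 1, and its values lay around the reference 95th percentile of 7.03, near the level of a probe set without its transcript.

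Outside AKR1C, 0 of the 8 member probe sets were called in either direction by limma, and 0 had SH3GL2 arrays above all empty vector arrays. With 1.99%, 2.18% and 10.5% of all probe sets meeting these rules, so few probe sets would give about as many, and nothing is read from the counts. At an unadjusted p under 0.05 limma had 1, HMOX1, beside 8.24% of all probe sets that were higher at that threshold, and the one-way analysis of variance had 0 at an adjusted p under 0.05. The upper limits of the 95% intervals of these 8 probe sets reached at most 0.50, as the plot of differences with intervals shows.

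**Figure D2:**
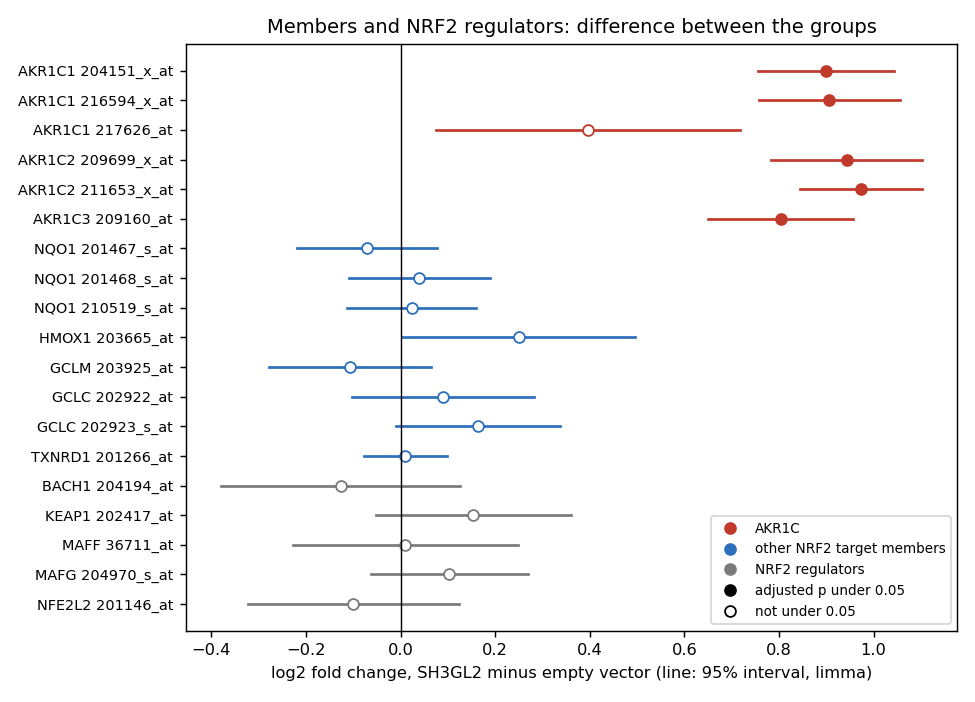
Log2 fold change, SH3GL2 minus empty vector, of each member probe set and of 5 NRF2 regulators (vertical axis), with lines for the 95% interval from limma (3 arrays per group) and filled points for an adjusted p under 0.05. The 5 bright AKR1C probe sets lie between 0.80 and 0.97, and the other NRF2 target members between -0.11 and 0.25.

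The factor and its regulators were read next, 1 probe set for each gene, the brightest. Of 16 measured regulators of 18 listed, 2 rose and 0 fell, beside 2.54% and 2.36% of all 11963 genes that were called higher and lower in the same way. The median difference was 0.02, and 0.02 over all genes. NFE2L2 was at 11.77 ± 0.19 in empty vector and 11.67 ± 0.21 in SH3GL2 arrays (SD, n = 3), a difference of -0.10 (95% interval -0.32 to 0.12). KEAP1 was at 9.22 ± 0.05 and 9.37 ± 0.22, a difference of 0.15 (95% interval -0.05 to 0.36). Their transcripts say nothing of NRF2 protein, which is controlled mainly by its breakdown. BACH1 differed by -0.13, MAFF by 0.01 and MAFG by 0.10, and none passed the test. MAFK had no probe set with its symbol alone and was not analysed here.

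The regulators that rose were DPP3, a peptidase known to bind KEAP1, and GSK3B, a kinase known to mark NRF2 for breakdown. DPP3 read 8.56, 8.59 and 8.57 in empty vector and 8.85, 8.96 and 8.93 in SH3GL2 arrays, a rise of 0.34 (SE 0.07, adjusted p = 0.0131). Its probe set is of the _x_at kind. GSK3B read 8.86, 8.84 and 8.89 against 9.15, 9.16 and 9.25, a rise of 0.32 (SE 0.07, adjusted p = 0.0149). The groups did not overlap for either gene, and both rises were smaller than those of AKR1C. When empty vector replicate 2 was left out DPP3 was no longer called (adjusted p = 0.0540), nor when SH3GL2 replicate 3 was (adjusted p = 0.0788). GSK3B was not called without those arrays (adjusted p = 0.0797 and 0.105) or without empty vector replicate 1 (adjusted p = 0.0516). The one-way analysis of variance called neither (adjusted p = 0.0752 and 0.0834).

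A wider list of other NRF2 targets had 60 genes, of which 51 were measured and 43 lay above the reference 95th percentile. Of the 51, 3 rose and 1 fell, again beside 2.54% and 2.36% of all genes, and the median difference was 0.03. At an unadjusted p under 0.05 in limma, 10 of the 51 were higher, a larger share than the 9.94% of all genes. Another 3 were lower, a smaller share than the 7.56% of all genes. Whether the list differs from all genes was not tested. Those higher but not called were TRIM16 (0.33), MGST2 (0.28), PIR (0.24), ABCC1 (0.22), EPHX1 (0.21, under the reference 95th percentile), FECH (0.18) and TKT (0.17). Those lower but not called were UGDH (-0.20) and TXN (-0.13). By role, 1 of 17 glutathione and thioredoxin genes rose, 0 of 5 NADPH genes and 0 of 5 heme and iron genes were called by limma, and of 13 drug conjugation and export genes 1 rose and 1 fell, and the other riser was outside these roles. The brightest targets had differences of -0.05 for the ferritin light chain FTL, 0.03 for the peroxiredoxin PRDX1, -0.19 for the thioredoxin inhibitor TXNIP and 0.03 for the superoxide dismutase SOD1. None of these 4 passed the test, though the SH3GL2 arrays lay under all empty vector arrays for FTL.

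CES1, a carboxylesterase that splits drug and lipid esters, rose from 8.60 ± 0.08 to 9.13 ± 0.20 (SD, n = 3), by 0.53 on the log2 scale (SE 0.09, adjusted p = 0.00577). GSTP1, a glutathione transferase, read 11.77, 11.68 and 11.64 in empty vector and 11.90, 12.12 and 12.02 in SH3GL2 arrays, a rise of 0.32 (SE 0.06, adjusted p = 0.0101). RXRA, a nuclear receptor that pairs with many others, rose by 0.42 (SE 0.08, adjusted p = 0.00916) on the brighter of its probe sets. Its dimmer probe set differed by 0.24 and did not pass. RXRA was not called when empty vector replicate 2 (adjusted p = 0.0577) or SH3GL2 replicate 3 (adjusted p = 0.0544) was left out, and GSTP1 without either of them or empty vector replicate 3 (adjusted p = 0.0525 to 0.0577). In the other direction, ABCC2, an export pump for glutathione and glucuronide conjugates, read 6.23, 6.43 and 6.48 against 5.32, 5.77 and 5.41. It fell by 0.88 (adjusted p = 0.00102), with both means under the reference 95th percentile. None of these 4 genes was called by the one-way analysis of variance (adjusted p = 0.170 to 0.239) or with values floored at the reference median (adjusted p = 0.0833 to 0.141), and GSTP1 was not called without the intensity trend (adjusted p = 0.0838). All values of these 4 genes lay above the reference median of 4.95, so the floor left them unchanged. It acted on their calls only through other probe sets in the fit.

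**Figure D3:**
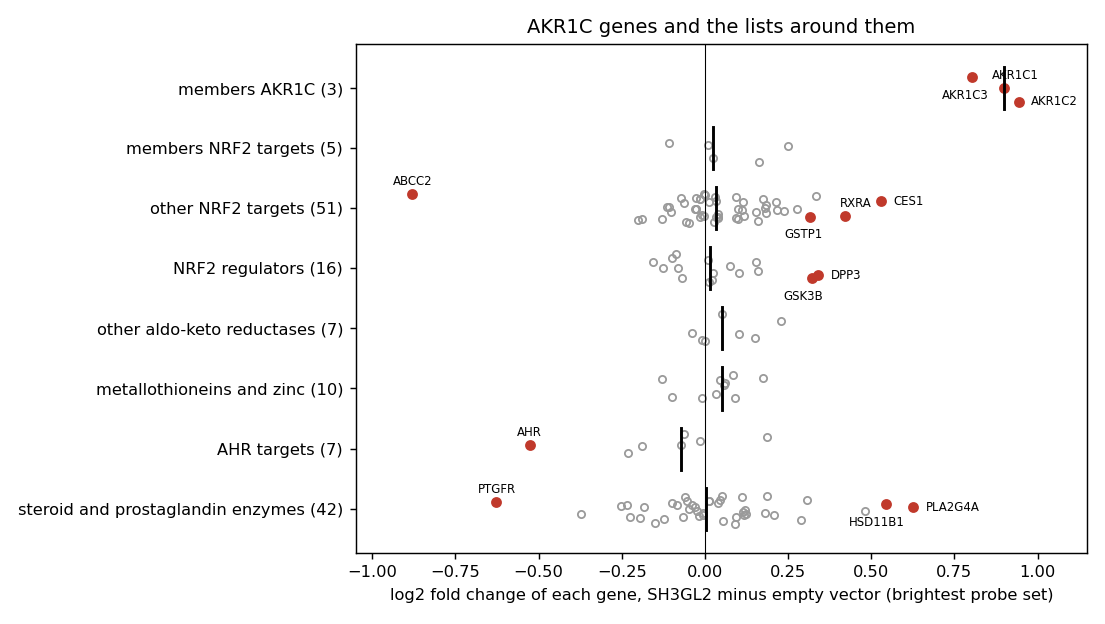
Log2 fold change, SH3GL2 minus empty vector, of each measured gene (horizontal axis, brightest probe set) in 8 lists (vertical axis, number measured in brackets, points spread vertically for clarity), with filled points and names for genes at an adjusted p under 0.05 in limma and a black line for the median. The AKR1C genes lie at 0.80 to 0.94, and the medians of the other lists lie between -0.07 and 0.05.

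The rest of the aldo-keto reductase family had 10 listed genes, of which 7 were measured. By limma 0 rose and 0 fell, with 1 higher at an unadjusted p under 0.05 and 0 by the one-way analysis of variance. Over all genes 2.54% and 2.36% were called and 9.94% were higher unadjusted, so a list of 7 would give about as many. That 1 gene was KCNAB2, a potassium channel subunit built like an aldo-keto reductase, at 8.86 ± 0.06 and 9.09 ± 0.05 (SD, n = 3), a difference of 0.23 (adjusted p = 0.0943). AKR1C4, the liver member of the AKR1C cluster, was at 3.50 and 3.61, and the NRF2-responsive AKR1B10 at 4.28 and 4.33, all under the reference median of 4.95. AKR7A2, an aldehyde reductase, was well above it at 10.08 and 10.23 and did not pass the test.

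AKR1C1, AKR1C2 and AKR1C3 stand next to each other on chromosome 10, and their neighbours were read after the values were known. By gene order, 8 genes on each side of the group were taken. KLF6, a zinc-finger factor that lies on the AKR1C1 side, fell on 2 of its 3 probe sets, by 0.45 (adjusted p = 0.00138) and 0.34 (adjusted p = 0.00730). On the other side the alpha-tubulin-like gene TUBAL3 and the ankyrin repeat gene ASB13 differed by 0.43 (adjusted p = 0.0514) and 0.28 (adjusted p = 0.0649). No other measured neighbour was called.

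A list of steroid and prostaglandin genes, mostly enzymes and receptors, 42 of 44 measured, had 2 genes that rose and 1 that fell, beside 2.54% and 2.36% of all genes, with a median of 0.00. PLA2G4A, the phospholipase that frees arachidonic acid for prostaglandins, rose from 5.80 ± 0.23 to 6.43 ± 0.12 (SD, n = 3), by 0.63 (adjusted p = 0.00979). HSD11B1, which regenerates cortisol, read 5.77, 5.54 and 5.57 against 5.93, 6.31 and 6.27 and rose by 0.54 (adjusted p = 0.0198). Both lay under the reference 95th percentile. PLA2G4A lost its call without SH3GL2 replicate 3 (adjusted p = 0.0651), and HSD11B1 without any 1 of empty vector replicates 2 and 3 and SH3GL2 replicates 2 and 3 (adjusted p = 0.0662 to 0.108). PTGFR, the receptor for the prostaglandin F that AKR1C3 makes, read 9.58, 9.56 and 9.63 in empty vector and 9.06, 8.81 and 9.02 in SH3GL2 arrays. It fell by 0.63 (SE 0.08, adjusted p = 3.40e-04), and the groups did not overlap. The one-way analysis of variance called none of these 3 genes (adjusted p = 0.102 to 0.268), and the floor ended the calls of PLA2G4A and HSD11B1 (adjusted p = 0.148 and 0.170). The values of both genes lay above the floor, which therefore acted only through other probe sets in the fit.

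The lists of neighbouring stress responses were short, and with 2.54% of all genes called higher and 2.36% lower they would be expected to hold few calls. The aryl hydrocarbon receptor shares NQO1 with NRF2 as a target, and of 7 measured genes of its list 0 rose and 1 fell, with a median of -0.07. That gene was AHR itself, which read 10.10, 9.99 and 10.36 against 9.69, 9.45 and 9.73 and fell by 0.53 (adjusted p = 0.00757). It was not called with the floor (adjusted p = 0.180), which left its own values unchanged, or by the one-way analysis of variance (adjusted p = 0.278). Of 10 measured metallothionein and zinc genes, which answer to metals and oxidants, 0 were called by limma in either direction, with 1 higher at an unadjusted p under 0.05, beside 9.94% of all genes, and the median was 0.05.

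The genes whose profile over the 6 arrays lay closest to that of AKR1C were SDC1, TFPI2, JAG2, IGSF3 and ADD2. Likeness was the root mean square difference between each gene and the mean of the 6 AKR1C probe sets, each centred on its own mean over the arrays. It was 0.0662 for SDC1, a cell-surface proteoglycan, 0.0918 for TFPI2, a protease inhibitor of the matrix, and 0.0950 for JAG2, a Notch ligand. It was 0.0977 for IGSF3, an immunoglobulin-family membrane protein, and 0.104 for ADD2, an adducin of the membrane skeleton. SDC1 read 9.68, 9.60 and 9.52 in empty vector and 10.20, 10.44 and 10.24 in SH3GL2 arrays, so its highest array was SH3GL2 replicate 2, as for AKR1C. The differences of the 5 genes ran from 0.63 for ADD2 to 0.80 for IGSF3. None of them is in the lists above, and the measure was chosen on the AKR1C pattern, so it carries no test. The AKR1C mean includes the dim 217626_at, at 6.19, 5.79 and 5.46 in empty vector arrays, so these values entered the ranking. A ranking without that probe set was not run.

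**Figure D4:**
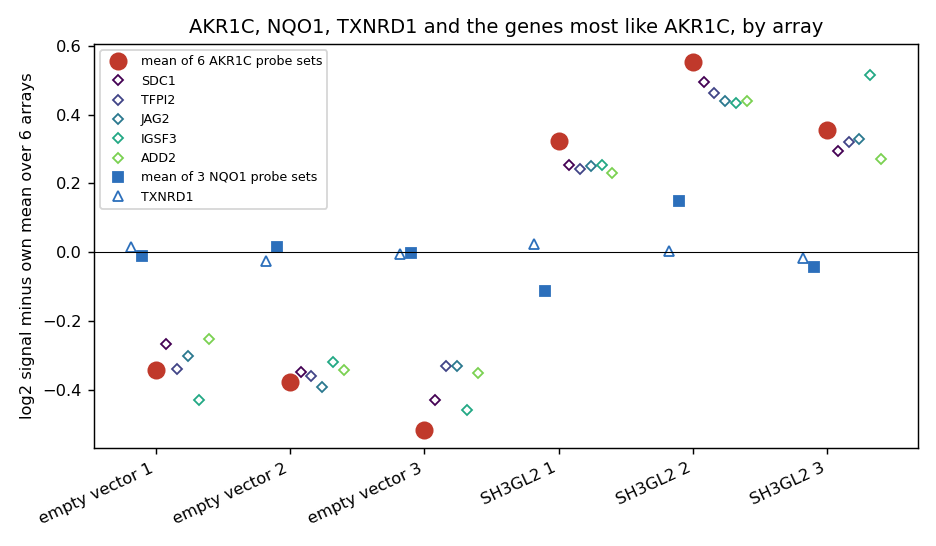
Log2 signal minus its own mean over the 6 arrays (vertical axis) on each array (horizontal axis) for the mean of the 6 AKR1C probe sets, the 5 genes closest to it, the mean of the 3 NQO1 probe sets, and TXNRD1. The AKR1C mean and the 5 genes lie under 0 on every empty vector array and over 0 on every SH3GL2 array, while NQO1 and TXNRD1 stay near 0 apart from NQO1 on SH3GL2 replicates 1 and 2.

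Values came from arrays of whole cultures, in which a change in the share of cells that express a gene and a change in RNA per cell cannot be told apart.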

How the data were processed

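Gene expression in SUM-159 cells was measured on 6 Affymetrix human expression arrays, 3 with empty vector and 3 with SH3GL2, grouped by their labels. The authors deposited 1 log2 signal per probe set. The submitters' processing notes name MAS5 and the study's methods the Affymetrix operating software, and the version and scaling target are not given in the sources used here. Such scaling sets whole arrays to a common level, so a shift shared by all genes would not show. The log base was settled from the range of the values (2.82 to 15.31) and a fold change the study gives.

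Values were used as deposited. After leaving out 62 control probe sets, limma 3.58.1 (R 4.3.3) fitted group means to 22215 probe sets, with an intensity trend in eBayes, two-sided tests and Benjamini-Hochberg adjustment, at an adjusted p of 0.05. The self-test used simulated data. With 3 arrays per group an exact permutation test of 1 probe set could not go below a p of 0.10. Symbols came from the platform annotation, in which 19064 probe sets had 1 symbol, 1043 several and 2108 none. Lists used the brightest probe set of each gene with 1 symbol.

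The members, lists and tests were chosen with earlier results of these data known. Named were all member probe sets, 6 NRF2 regulators, up to 4 genes per direction in each other list by the smallest adjusted p under 0.05, the 4 brightest other NRF2 targets and the 5 genes most like AKR1C. KLF6, TUBAL3, ASB13, KCNAB2, AKR1C4, AKR1B10 and AKR7A2 were added after their values were seen. So were the other NRF2 targets named for an unadjusted p under 0.05 alone. Promoter windows came from RefSeq (GRCh38.p14), aligned with Biopython 1.88. Alternatives changed the scaling, an offset of 16, a floor, a filter on dim probe sets, the prior, the test (one-way analysis of variance, since the study's statistics section names Anova among its tests, not for the arrays), a replicate block, the threshold (0.01), the probe set of a gene, and each array in turn.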

Additional observations from a re-analysis of the deposited data

How the results depend on the processing

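The differences of the 5 bright AKR1C probe sets kept their direction under all alternatives run, from 0.715 to 1.02 when 1 array was left out, and the member probe sets outside AKR1C were called under none. By the one-way analysis of variance AKR1C1 (0.90 and 0.91), AKR1C2 on 209699_x_at (0.94) and AKR1C3 (0.80) lost their calls, leaving 1 member probe set called higher, AKR1C2 on 211653_x_at. That test uses the spread of each probe set alone. It called 33 probe sets higher and 44 lower, and in the lists 0 NRF2 regulators higher, 0 other NRF2 targets higher and 0 lower, 0 AHR genes lower, and 0 steroid and prostaglandin genes higher and 0 lower.

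With a floor at the reference median, 137 probe sets were called higher and 163 lower, with 0 other NRF2 targets higher, 0 lower, 0 AHR genes lower and 0 steroid and prostaglandin genes higher. The genes that lost these calls had all their values above the floor, so the change came through other probe sets in the fit. With the filter on dim probe sets, 0 other NRF2 targets were lower and 0 steroid and prostaglandin genes higher, since ABCC2, PLA2G4A and HSD11B1 were removed. Without the trend 270 probe sets were higher. At an adjusted p under 0.01, 191 were higher and 256 lower, with 0 regulators and 1 steroid and prostaglandin gene higher. Leaving out 1 array gave 184 to 376 higher and 296 to 437 lower probe sets, 5 to 6 members higher, 0 to 2 regulators higher, 1 to 5 other NRF2 targets higher and 1 to 2 lower, 0 to 1 metallothionein gene lower, and 0 to 2 steroid and prostaglandin genes higher and 1 to 2 lower. The sixth member was AKR1C1 on 217626_at, at 0.585 without empty vector replicate 1 and from 0.22 to 0.585 over the 6 arrays left out.

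Differences near 0 changed sign and were called under no setting. TXNRD1 was -0.0097 after quantile normalization and -0.0033 after median centring. MAFF (-0.0983 to 0.1317 with 1 array left out) was -0.0033 after median centring and -0.0033, -0.0967 and -0.0983 without SH3GL2 replicate 1, empty vector replicate 2 and SH3GL2 replicate 3. NFE2L2 (-0.17 to 0.02) was 0.01 and 0.02 without empty vector replicate 3 and SH3GL2 replicate 2. Without SH3GL2 replicate 2, NQO1 was -0.045 on 201468_s_at (range to 0.095) and -0.04 on 210519_s_at (to 0.09), and PRDX1 was -0.0067 (to 0.0583). The causes were not tested.

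Deviations from the group mean correlated at -0.009, 0.132 and 0.146 between same-numbered arrays, for replicates 1, 2 and 3. Empty vector 2 with SH3GL2 3 gave -0.155, and empty vector 3 with SH3GL2 2 gave -0.132. Deviations within a group cancel out, so these values are tied to each other and are not separate findings. They describe a weak pattern shared by replicates 2 and 3 across the groups, whose source was not tested. With the replicate numbers as a block, 506 probe sets were called higher and 573 lower, beside 441 and 485 without it. In that fit 5 members remained higher, and 1 metallothionein gene was called higher. The block changed no other count of calls in the lists.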
